A study of Homo sapiens with 6 samples.

Results

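The genes described here encode the proteins of elastic fibres and microfibrils: elastin (ELN), the fibrillins FBN1 and FBN2, the fibulins FBLN2, FBLN5, EFEMP1 (fibulin-3) and EFEMP2 (fibulin-4), and the microfibril-associated proteins MFAP2, MFAP4 and MFAP5. These 10 genes were taken by their symbols from a table of 23355 entries with a gene symbol. Of the 10, 9 had enough reads to be tested, among 13456 genes tested in all, and MFAP5 did not. FBLN1, a further fibulin of elastic fibres, was not one of the 10, because its counts were nearly missing from 1 library. It had 52 reads in siTAZ #1 replicate 2 and between 5248 and 6514 reads in each of the other 5 libraries.

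HFL-1, a cell line of human fetal lung fibroblasts, received either a control siRNA without a target (siNTC) or 1 of 2 siRNAs against TAZ, siTAZ #1 or siTAZ #2, and its total RNA was taken 48 h later. TAZ, whose gene symbol is WWTR1, is a co-activator of transcription in the Hippo pathway, and the comparison asked which genes depend on it in lung fibroblasts. Each group had 2 libraries, which the depositors call biological replicates, and all 6 came from this single line. No agent other than the siRNA distinguished the groups, and the study names the same transfection reagent for all of the siRNAs.

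The libraries held between 15648055 and 32078188 reads assigned to genes. In siTAZ #1 replicate 2, the deepest of them, the genes from RANGAP1 on chromosome 22 through chromosomes X and Y held 0.248% of the reads against 3.58% to 3.75% in the other libraries, and these 1168 entries were left out of the fit; none of the 10 genes lies there. The replicates of siTAZ #1 also had a higher mean chi-square per gene (23.5) than those of siTAZ #2 (11.7) and siNTC (5.38). This measure is taken on counts and grows with depth at the same relative spread, and siTAZ #1 holds the deepest library. The part of depth in these values was not tested. The level of WWTR1 was 137 and 136 CPM (read counts scaled to a common library size by TMM) in siNTC, 27.3 and 28.7 in siTAZ #1, and 47.8 and 44.6 in siTAZ #2, so it was lower in every siTAZ library and more so with siTAZ #1 (log2 difference between the siRNAs -0.72, SE 0.12, edgeR FDR = 0.000248).

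All 9 fibroblast markers examined were above 1 CPM in every library. Their summed level, most of it COL1A1, COL1A2, COL3A1 and VIM, differed between the groups. It was 36154 to 36253 CPM in siNTC, 23428 to 24898 in siTAZ #1 and 28172 to 30002 in siTAZ #2. The single markers did not move together. PDGFRA was at 463 and 416 CPM in siNTC and at 1418 and 1439 in siTAZ #1. PDGFRB was also higher with siTAZ #1, THY1 overlapped siNTC, and the others were lower. With siTAZ #2, COL1A1, PDGFRA, PDGFRB and THY1 were higher and the others lower. Markers of smooth muscle summed to 618 to 631 CPM in siNTC, 604 to 705 in siTAZ #1 and 414 to 439 in siTAZ #2. ACTG2 (228 to 561 CPM) was the highest of them and made up most of the sum. With siTAZ #1, MYOCD and CNN1 were lower than in siNTC, DES and SMTN were higher, and ACTG2 and MYH11 overlapped siNTC. MYOCD was at 20.2 and 18.7 CPM in siNTC and at 6.21 and 8.37 in siTAZ #1. With siTAZ #2, ACTG2 and CNN1 were lower than in siNTC, MYH11, DES and SMTN were higher, and MYOCD overlapped siNTC. Cartilage markers summed to 35.1 to 40.2 CPM in siNTC, 81.5 to 99.9 in siTAZ #1 and 37.9 to 55.1 in siTAZ #2. SOX9 made up most of the sum in every library. It was at 30.2 and 25.6 CPM in siNTC, 71.2 and 85.2 in siTAZ #1, and 36.6 and 27.2 in siTAZ #2. The other cartilage markers, COL2A1 and ACAN, overlapped siNTC with siTAZ #1, so the higher sum there was mainly SOX9. With siTAZ #2, COL2A1 was higher than in siNTC, ACAN was lower and SOX9 overlapped siNTC. Epithelial markers summed to at most 3.49 CPM. Endothelial markers summed to 27.1 to 49.0 CPM, nearly all of it TEK (24.9 to 46.4 CPM); VWF reached 3.07 CPM, and PECAM1, CDH5 and EMCN stayed under 1 CPM. Immune markers summed to 39.6 to 78.4 CPM, nearly all of it CD68 (39.2 to 78.1 CPM), with PTPRC, CD14 and LYZ under 1 CPM. The part of these differences in the results on elastic fibre genes was not tested.

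Elastic fibres give lung tissue its recoil. Their core is crosslinked elastin, and it is laid down on a scaffold of microfibrils, which are built mainly of fibrillin. Fibulins bind elastin, the crosslinking enzymes and the microfibrils during assembly, and small glycoproteins such as MFAP2 and MFAP4 decorate the microfibrils. Fibrillin microfibrils also hold latent TGF-beta through its binding proteins. Loss of single members causes inherited disease: FBN1 variants underlie Marfan syndrome, ELN variants cause supravalvular aortic stenosis and cutis laxa, and FBLN5 and EFEMP2 variants cause cutis laxa. FBN2 is known mainly from development, and FBN1 as the fibrillin of both developing and adult tissue.

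The sequences upstream of 3 of the genes are shown, because they moved the most or changed direction between the siRNAs: FBN1, FBN2 and MFAP2, the last with both of its listed starts. Each is the 250 bases before a transcription start in RefSeq (build GRCh38.p14, minus strand, written 5′ to 3′ toward the start). The positions are chr15:48644971-48645220 for FBN1, chr5:128538246-128538495 for FBN2, chr1:16981584-16981833 for MFAP2 start 1 and chr1:16980621-16980870 for MFAP2 start 2. Capitals mark matches, on either strand, to GGAATG, the core letters bound by the TEAD partners of TAZ, or to TGANTCA. The latter, with any base at N, is a looser form of the AP-1 site TGA(C/G)TCA.
FBN1: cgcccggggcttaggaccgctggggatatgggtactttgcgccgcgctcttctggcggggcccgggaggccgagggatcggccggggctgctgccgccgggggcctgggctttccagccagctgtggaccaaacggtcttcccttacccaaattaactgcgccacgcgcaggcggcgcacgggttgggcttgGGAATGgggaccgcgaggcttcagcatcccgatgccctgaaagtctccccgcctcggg
FBN2: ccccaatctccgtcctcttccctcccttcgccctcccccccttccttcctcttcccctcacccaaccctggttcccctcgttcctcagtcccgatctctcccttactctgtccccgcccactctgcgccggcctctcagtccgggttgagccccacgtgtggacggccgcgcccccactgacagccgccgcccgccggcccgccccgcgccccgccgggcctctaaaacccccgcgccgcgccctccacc
MFAP2 start 1: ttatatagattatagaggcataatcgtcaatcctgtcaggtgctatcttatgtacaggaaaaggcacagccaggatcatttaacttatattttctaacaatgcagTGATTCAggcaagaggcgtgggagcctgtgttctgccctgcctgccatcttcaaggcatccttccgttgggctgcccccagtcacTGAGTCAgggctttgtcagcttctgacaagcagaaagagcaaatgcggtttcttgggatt
MFAP2 start 2: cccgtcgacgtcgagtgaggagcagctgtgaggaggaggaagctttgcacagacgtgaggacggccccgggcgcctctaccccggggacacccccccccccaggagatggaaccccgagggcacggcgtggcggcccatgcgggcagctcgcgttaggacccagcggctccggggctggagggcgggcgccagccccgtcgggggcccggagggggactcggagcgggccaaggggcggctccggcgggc
The FBN1 window held 1 TEAD-type match, whose first base lies 58 bases before the start. The window of MFAP2 start 1 held 2 AP-1-type matches, TGATTCA beginning 145 bases and TGAGTCA beginning 60 bases before the start. Only TGAGTCA has the C or G of the AP-1 site at N. Neither string occurred in the windows of FBN2, of MFAP2 start 2, or of EFEMP2, FBLN2 and FBLN5, over 9 windows of 300 bases (50 of them after the start) for the 6 genes with an entry. ELN, EFEMP1, MFAP4 and MFAP5 had no entry. Of 35116 promoter windows in the same table, 14.03% held the TEAD-type string and 7.709% the AP-1-type string. A match records the letters only, and it was not tied to binding in these cells.

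ELN and FBN1 moved in opposite directions with the siRNAs, and each changed direction between them. Elastin mRNA fell with siTAZ #1 and rose with siTAZ #2, whereas FBN1 rose with siTAZ #1 and fell with siTAZ #2. FBN2 and EFEMP1 fell with both siRNAs, much further with siTAZ #2, and MFAP2 rose with both; with siTAZ #1 the call of EFEMP1 was lost in 2 of 18 alternative analyses and that of MFAP2 in 10 of 18. FBLN5 and MFAP4 fell with siTAZ #1 and passed no test with siTAZ #2. Each siRNA was compared with the same siNTC libraries, so the comparisons with siNTC are not independent, and the siRNAs were also compared with each other directly. In whole-culture RNA, fewer cells expressing a gene and less of its RNA per cell cannot be told apart.

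**Figure D1:**
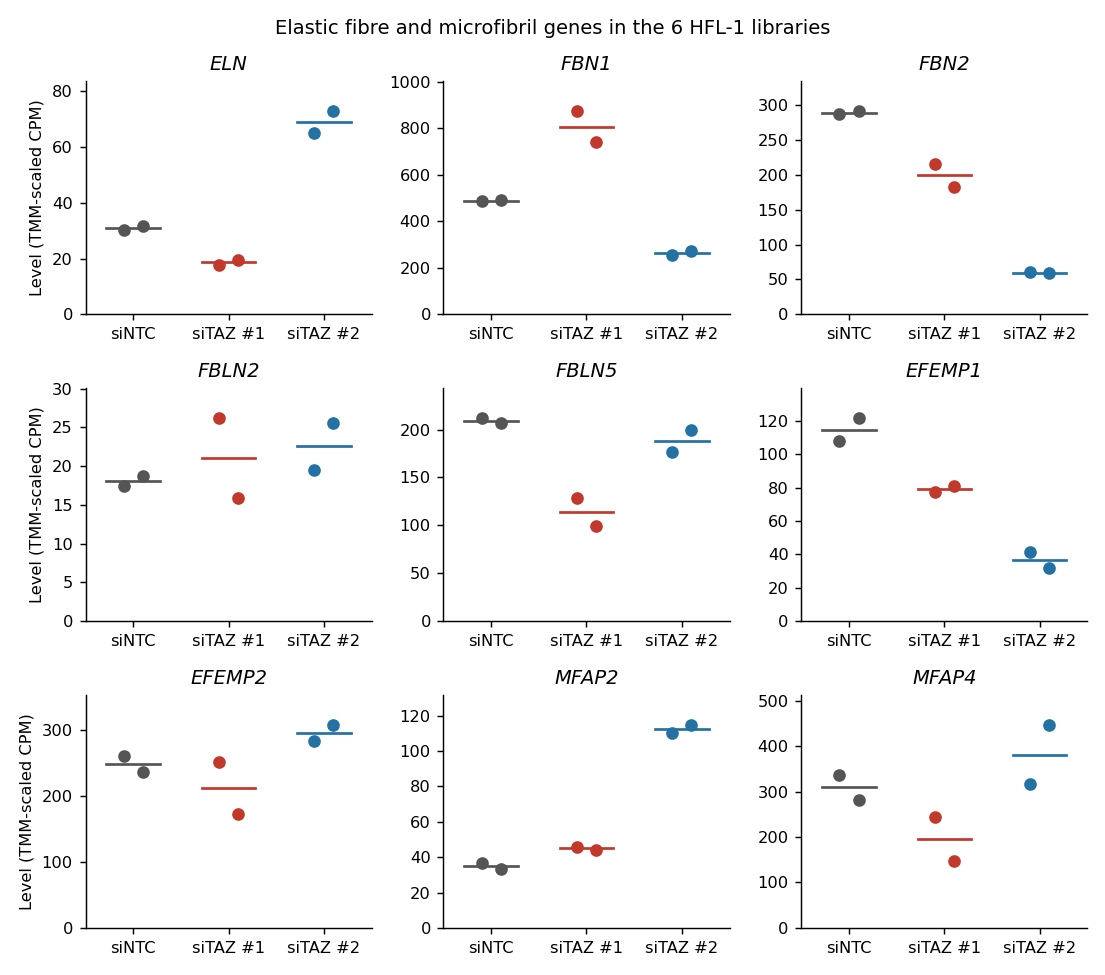
Level of the 9 tested genes (CPM scaled by TMM, linear axis from 0) in the 2 libraries of each group; points are libraries and lines are group means. ELN lies at 17.7 and 19.6 CPM with siTAZ #1 and at 65.2 and 72.8 with siTAZ #2, on either side of siNTC, and FBN1 shows the opposite order.

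ELN encodes tropoelastin, the soluble precursor of the elastic core, and lies on chromosome 7 from 73442119 to 73484237 on the plus strand (GRCh37). Its level was 30.1 and 31.7 CPM in siNTC, 17.7 and 19.6 CPM in siTAZ #1, and 65.2 and 72.8 CPM in siTAZ #2. The groups did not overlap, and the lowest siTAZ #2 library was above every other library. ELN was 1.65-fold lower with siTAZ #1 than with siNTC (log2 fold change -0.72, SE 0.15, edgeR FDR = 0.00153). It was 2.23-fold higher with siTAZ #2 (log2 fold change 1.16, SE 0.14, edgeR FDR = 1.44e-05). Between the siRNAs the level differed 3.68-fold (log2 difference -1.88, 95% interval -2.19 to -1.57, edgeR FDR = 1.68e-07). These values rest on 265 to 1345 reads per library.

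Fibrillins form the beaded backbone of the microfibril. FBN1, on chromosome 15 from 48700510 to 48937918 (minus strand), was at 485 and 490 CPM in siNTC, 872 and 742 CPM in siTAZ #1, and 254 and 272 CPM in siTAZ #2. The 3 groups were separate, in the reverse order of ELN. FBN1 was 1.65-fold higher with siTAZ #1 (log2 fold change 0.73, SE 0.11, edgeR FDR = 9.12e-05) and 1.86-fold lower with siTAZ #2 (-0.89, SE 0.11, edgeR FDR = 1.03e-05). It was 3.07-fold higher with siTAZ #1 than with siTAZ #2 (log2 difference 1.62, 95% interval 1.39 to 1.85, edgeR FDR = 4.19e-08).

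FBN2, on chromosome 5 from 127593601 to 127994878 (minus strand), had the largest change of the 9 tested genes. Its level was 287 and 291 CPM in siNTC, 215 and 183 CPM in siTAZ #1, and 60.2 and 59.5 CPM in siTAZ #2. Every siTAZ library was below both siNTC libraries. FBN2 was 1.45-fold lower with siTAZ #1 (log2 fold change -0.54, SE 0.11, edgeR FDR = 0.00183) and 4.83-fold lower with siTAZ #2 (-2.27, SE 0.12, edgeR FDR = 2.8e-09). The siRNAs differed by 3.33-fold (log2 difference 1.73, 95% interval 1.49 to 1.98, edgeR FDR = 4.29e-08). FBN1 and EFEMP1 were likewise lower with siTAZ #2 than with siTAZ #1. WWTR1 differed the other way between the siRNAs, as did ELN, FBLN5, EFEMP2, MFAP2 and MFAP4. A relation of these levels to that of WWTR1 was not tested.

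The balance of the fibrillins shifted the same way with both siRNAs although FBN1 itself did not. On a scale of CPM per kilobase of transcript, the ratio of FBN1 to FBN2 within a library was 1.59 and 1.58 in siNTC, 3.81 and 3.81 in siTAZ #1, and 3.97 and 4.29 in siTAZ #2. Both siTAZ groups were thus above siNTC, by 2.40-fold and 2.60-fold. With 2 libraries against 2, an exact two-sided permutation test cannot give a p below 0.333, so no p is given for the ratios. Reads of FBN1 and FBN2 together came to 772 and 781 CPM in siNTC, 1088 and 925 CPM in siTAZ #1, and 314 and 331 CPM in siTAZ #2. The summed fibrillin reads therefore lay above siNTC with siTAZ #1 and below it with siTAZ #2.

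FBLN5 is a fibulin that tethers elastin to cells and to the microfibril, and it lies on chromosome 14 from 92335755 to 92414331 (minus strand). Its level was 212 and 206 CPM in siNTC, 128 and 98.9 CPM in siTAZ #1, and 176 and 200 CPM in siTAZ #2. It was 1.84-fold lower with siTAZ #1 (log2 fold change -0.88, SE 0.13, edgeR FDR = 0.000103). With siTAZ #2 both libraries were slightly below siNTC, and the difference did not pass the test (log2 fold change -0.15, 95% interval -0.43 to 0.12, edgeR FDR = 0.371). The siTAZ #1 libraries had less FBLN5 than the siTAZ #2 libraries (log2 difference -0.73, SE 0.13, edgeR FDR = 0.000376).

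EFEMP1 encodes fibulin-3, an extracellular glycoprotein known for its role in elastic fibres of fascia, and lies on chromosome 2 from 56093102 to 56151274 (minus strand). Its level was 108 and 122 CPM in siNTC, 77.3 and 81.1 CPM in siTAZ #1, and 41.7 and 32.1 CPM in siTAZ #2. All siTAZ libraries were below siNTC, and the siTAZ #2 libraries were the lowest. EFEMP1 was 1.45-fold lower with siTAZ #1 (log2 fold change -0.54, SE 0.13, edgeR FDR = 0.00726) and 3.11-fold lower with siTAZ #2 (-1.64, SE 0.14, edgeR FDR = 4.18e-07). The fall with siTAZ #1 did not pass the test without siNTC replicate 2 (edgeR FDR = 0.121) or with all genes kept in the fit (edgeR FDR = 0.061). The siRNAs differed 2.14-fold (log2 difference 1.10, SE 0.14, edgeR FDR = 1.76e-05).

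EFEMP2 and FBLN2 did not pass the test against siNTC with either siRNA. EFEMP2 encodes fibulin-4, which brings lysyl oxidase to elastin, and lies on chromosome 11 from 65633912 to 65641063 (minus strand). It was at 260 and 237 CPM in siNTC, 251 and 173 CPM in siTAZ #1, and 283 and 307 CPM in siTAZ #2. Of the siTAZ #1 libraries, replicate 1 lay within the siNTC range and replicate 2 below it (log2 fold change -0.23, 95% interval -0.54 to 0.08, edgeR FDR = 0.247), and both siTAZ #2 libraries lay above it (0.25, -0.06 to 0.56, edgeR FDR = 0.185). Without siTAZ #1 replicate 1 the call with siTAZ #1 was a fall (log2 fold change -0.52, edgeR FDR = 0.00175), and without replicate 2 the value was 0.016 (edgeR FDR = 0.944). In the direct comparison the siTAZ #1 libraries had less EFEMP2 than the siTAZ #2 libraries (log2 difference -0.48, SE 0.14, edgeR FDR = 0.0151). That call was lost without siTAZ #1 replicate 2 (edgeR FDR = 0.128) and without siTAZ #2 replicate 2 (edgeR FDR = 0.102), with all genes kept (edgeR FDR = 0.094), and with an offset for GC content (edgeR FDR = 0.198).

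FBLN2, a fibulin of vessel walls and developing tissue, lies on chromosome 3 from 13590625 to 13679922 (plus strand). Its level was 17.4 and 18.8 CPM in siNTC, 26.2 and 15.9 CPM in siTAZ #1, and 19.5 and 25.6 CPM in siTAZ #2. The siTAZ #1 libraries lay on either side of siNTC, and the spread within each siTAZ group exceeded the difference between the siTAZ means. The log2 fold change was 0.20 with siTAZ #1 (95% interval -0.29 to 0.69, edgeR FDR = 0.54) and 0.32 with siTAZ #2 (95% interval -0.17 to 0.80, edgeR FDR = 0.3). The interval for the siRNAs' difference was -0.59 to 0.37.

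MFAP2 encodes MAGP-1, a small glycoprotein bound to fibrillin, and lies on chromosome 1 from 17300997 to 17307127 (minus strand). Its level was 36.6 and 33.2 CPM in siNTC, 45.9 and 44.3 CPM in siTAZ #1, and 110 and 115 CPM in siTAZ #2. All siTAZ libraries were above siNTC. MFAP2 was 3.22-fold higher with siTAZ #2 (log2 fold change 1.69, SE 0.12, edgeR FDR = 1.01e-07), the largest rise among the 9 genes. With siTAZ #1 it was 1.29-fold higher (log2 fold change 0.37, SE 0.12, edgeR FDR = 0.0346). The rise with siTAZ #1 did not pass the test without siNTC replicate 1 (edgeR FDR = 0.104), siNTC replicate 2 (0.266), siTAZ #1 replicate 1 (0.0675), siTAZ #1 replicate 2 (0.0529) or siTAZ #2 replicate 2 (0.055). The siRNAs differed 2.49-fold (log2 difference -1.32, SE 0.12, edgeR FDR = 9.04e-07).

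MFAP4, a fibrinogen-related protein that binds elastin and fibrillin, lies on chromosome 17 from 19286755 to 19290503 (minus strand). It was at 337 and 283 CPM in siNTC, 243 and 147 CPM in siTAZ #1, and 316 and 447 CPM in siTAZ #2. The replicates of both siTAZ groups were far apart, the siTAZ #2 libraries overlapped siNTC, and both siTAZ #1 libraries were below every other library. MFAP4 was 1.59-fold lower with siTAZ #1 (log2 fold change -0.67, SE 0.20, edgeR FDR = 0.0168) and did not pass with siTAZ #2 (0.30, 95% interval -0.11 to 0.71, edgeR FDR = 0.241). The fall with siTAZ #1 was -0.35 without siTAZ #1 replicate 2 (edgeR FDR = 0.115) and -1.08 without replicate 1 (edgeR FDR = 5.45e-05). It also failed the test without siNTC replicate 1 (edgeR FDR = 0.186), without siNTC replicate 2 (edgeR FDR = 0.0579) and with all genes kept (edgeR FDR = 0.144). Set directly against each other, the siTAZ #1 libraries had 1.96-fold less MFAP4 than the siTAZ #2 libraries (log2 difference -0.97, SE 0.20, edgeR FDR = 0.0011).

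MFAP5, which encodes MAGP-2 (chromosome 12, 8789942 to 8815484, minus strand), was scarcely read in these cells. It had 0 and 2 reads in the siNTC libraries, 0 and 10 in siTAZ #1, and 2 and 1 in siTAZ #2. The summed counts correspond to 0.0656 CPM in siNTC (exact Poisson 95% interval 0.00794 to 0.237), 0.212 CPM in siTAZ #1 (0.102 to 0.389) and 0.0819 CPM in siTAZ #2 (0.0169 to 0.239). All 10 reads of siTAZ #1 came from replicate 2. The intervals overlap and cover counting error only, and their overlap is not a test of a difference. Whether MFAP5 differed between the groups was not tested.

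With siTAZ #1, 5 of the 9 tested genes were lower and 2 were higher at an FDR under 0.05, with 2 not called, where 14.8% of all genes tested were lower and 15.7% were higher. These counts depended on single libraries: without siNTC replicate 2, 3 were lower, and without any 1 of siNTC replicates 1 and 2, siTAZ #1 replicates 1 and 2 and siTAZ #2 replicate 2, 1 was higher. With siTAZ #2, 3 were lower, 2 higher and 4 not called, where 19.3% of all genes were lower and 19.5% higher. Between the siRNAs, 5 were lower with siTAZ #1 (18.6% of all genes) and 3 were higher (19.4%), and FBLN2 was not called. The median absolute log2 fold change of the 9 was 0.54 with siTAZ #1, 0.89 with siTAZ #2 and 1.10 between the siRNAs. Over all genes tested it was 0.35, 0.41 and 0.40. The genes moved in both directions with each siRNA, and no direction held for all of them. They were chosen with earlier results of these data known, so a difference from all genes can follow from the choice.

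**Figure D2:**
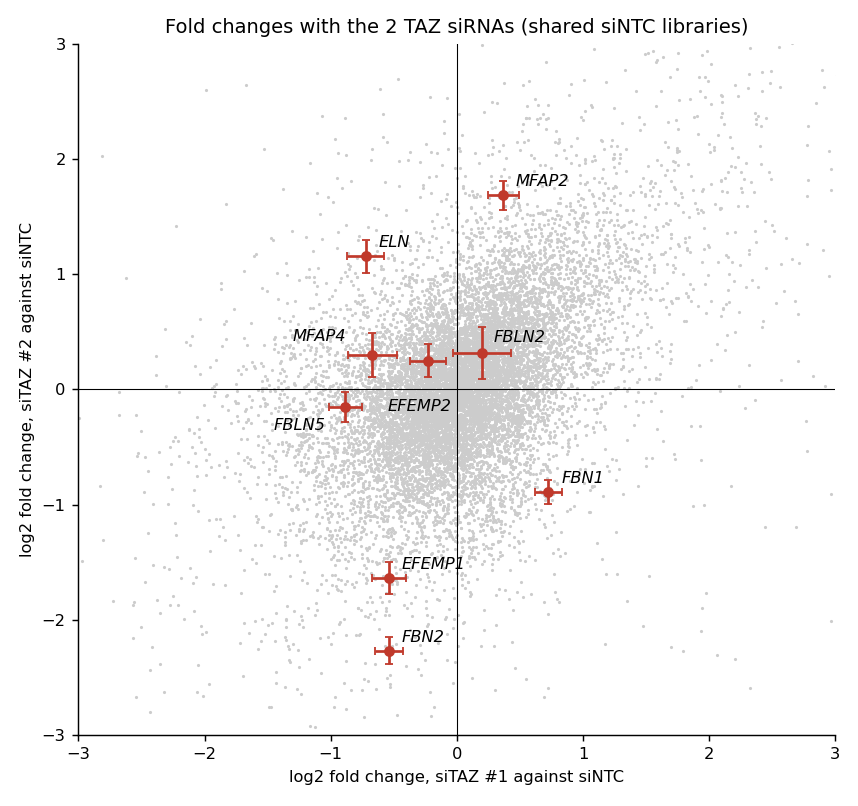
Log2 fold change with siTAZ #1 (horizontal) and with siTAZ #2 (vertical), both against the same siNTC libraries, for the 9 tested genes (labelled points; bars are standard errors) and all tested genes (grey; 136 genes lie beyond the axes). ELN (-0.72, 1.16) and FBN1 (0.73, -0.89) sit in opposite corners, and FBN2 and EFEMP1 lie low because of siTAZ #2.

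Ratios between other members within a library also differed between the groups. On the scale of CPM per kilobase, the ratio of ELN to FBN1 within a library was 0.212 and 0.221 in siNTC, 0.0694 and 0.0904 in siTAZ #1, and 0.877 and 0.916 in siTAZ #2. Its mean was 11.2-fold higher with siTAZ #2 than with siTAZ #1. The ratio of MFAP2 to FBN1 was 0.838 and 0.752 in siNTC, 0.585 and 0.663 in siTAZ #1, and 4.81 and 4.69 in siTAZ #2. Thus siTAZ #2 libraries alone carried more MFAP2 than FBN1 per kilobase. The ratio of MFAP4 to FBN1 was 4.43 and 3.68 in siNTC, 1.78 and 1.26 in siTAZ #1, and 7.94 and 10.5 in siTAZ #2. For these 3 ratios the groups did not overlap, with siTAZ #1 lowest and siTAZ #2 highest. The ratio of ELN to FBLN5, its binding partner, was 0.110 and 0.119 in siNTC and 0.107 and 0.153 in siTAZ #1, which overlapped, and 0.286 and 0.281 in siTAZ #2. A ratio within a library shows unequal change and does not say which of the genes changed.

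**Figure D3:**
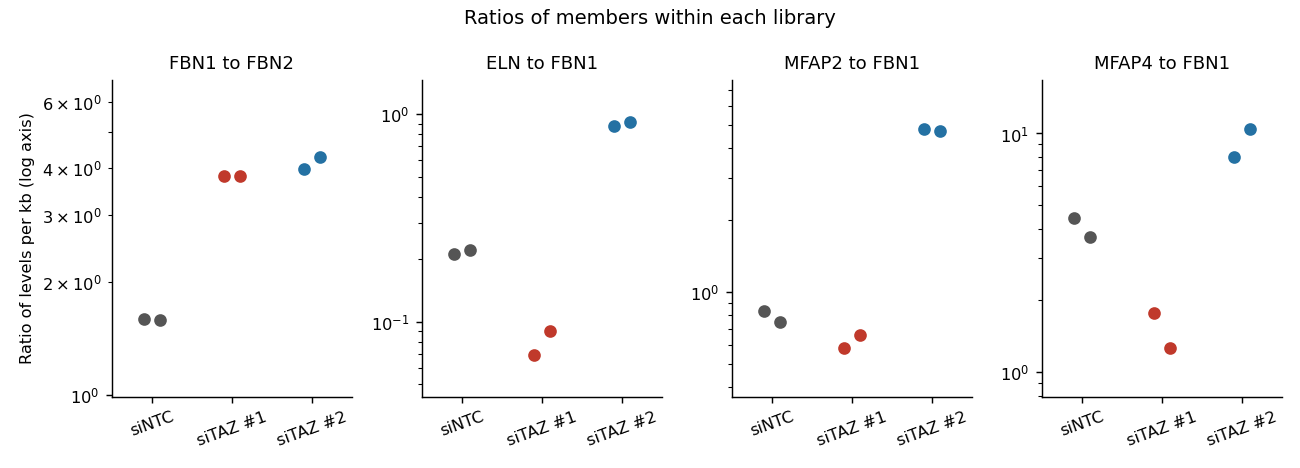
Ratio of the levels of pairs of genes (CPM per kilobase of transcript, log axis, each panel with its own range) within each library; points are the 2 libraries of a group. FBN1 to FBN2 is near 1.59 in siNTC and between 3.81 and 4.29 in all 4 siTAZ libraries, whereas ELN, MFAP2 and MFAP4 relative to FBN1 are lowest with siTAZ #1 and highest with siTAZ #2.

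The order of the genes by level per kilobase also differed between groups. In siNTC the mean level was highest for MFAP4 (170 CPM per kilobase, SD 21.2, n = 2), then EFEMP2 (128, SD 8.4) and FBLN5 (79.7, SD 1.45). EFEMP1 (42.4, SD 3.57) and FBN1 (42.0, SD 0.27) did not differ beyond their spread. MFAP2 (33.4, SD 2.32), FBN2 (26.5, SD 0.27), ELN (9.10, SD 0.34), FBLN2 (4.20, SD 0.22) and MFAP5 (0.023) followed. In siTAZ #1, EFEMP2 (110, SD 28.5) and MFAP4 (107, SD 37.4) overlapped at the top, FBN1 followed at 69.5 (SD 7.92), and ELN (5.49, SD 0.40) overlapped FBLN2 (4.89, SD 1.69). In siTAZ #2, MFAP4 (210, SD 50.7) and EFEMP2 (153, SD 8.63) were followed by MFAP2 at 108 (SD 3.13) and FBLN5 at 71.7 (SD 6.43). FBN1 (22.6, SD 1.06) and ELN (20.3, SD 1.58) were then neighbours, and FBN2 (5.48, SD 0.040) overlapped FBLN2 (5.24, SD 1.00). FBN1 therefore moved from the middle of the order to near the top with siTAZ #1, and MFAP2 did so with siTAZ #2. Lengths were those of each gene's canonical transcript, and use of another transcript would shift a level per kilobase but not a comparison between groups at a fixed length.

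Fold changes varied with the GC content of the transcript, and the values for these genes are given beside the medians of all tested genes in bins of GC content. With siTAZ #2 the median log2 fold change was 0.21 at 30% to 35% GC, 0.03 at 35% to 40%, -0.08 at 40% to 45%, -0.13 at 45% to 50%, -0.09 at 50% to 55%, 0.06 at 55% to 60%, 0.28 at 60% to 65% and 0.58 at 65% to 75%. The bin medians were thus lowest in the middle and higher at both ends. With siTAZ #1 they ran from 0.39 in the lowest bin through -0.08 at 50% to 55% to 0.26 in the highest. Of the genes that fell with siTAZ #2, EFEMP1 (41.9% GC) lies in the bin with a median of -0.08, and FBN1 (46.7%) and FBN2 (48.5%) in that with -0.13. Of those that rose, MFAP2 (59.6%) lies in the bin with 0.06 and ELN (61.0%) in that with 0.28. EFEMP2 (61.6%) and FBLN2 (61.9%) share the bin of ELN and were not called against siNTC with siTAZ #2. In a fit with an offset for GC content, the log2 fold changes with siTAZ #2 were 0.91 for ELN, -0.80 for FBN1, -2.18 for FBN2, -1.62 for EFEMP1 and 1.51 for MFAP2, and each still passed the test (edgeR FDR of 5.9e-05 or less). The value of EFEMP2 with siTAZ #2 went from 0.25 to -0.04 in that fit, and that of FBLN2 from 0.32 to 0.0059. In the same fit the ELN difference between the siRNAs was -1.62 and the FBN1 difference was 1.56.

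**Figure D4:**
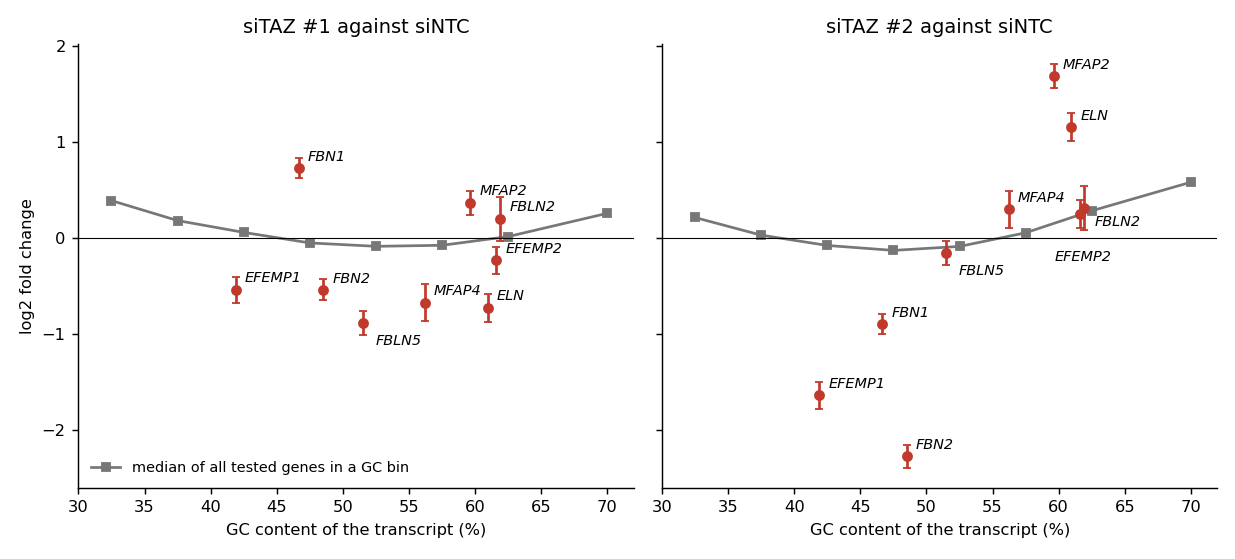
Log2 fold change against siNTC by GC content of the canonical transcript for the 9 tested genes (circles; bars are standard errors) and the median of all tested genes in each GC bin (squares at bin centres), for siTAZ #1 (left) and siTAZ #2 (right). With siTAZ #2 the bin medians lie between -0.13 and 0.58, and FBN1, FBN2, EFEMP1, MFAP2 and ELN lie outside that range. The medians do not show the spread of single genes in a bin. Over all tested genes the median absolute log2 fold change with siTAZ #2 was 0.41.

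Other genes of elastic fibre assembly and turnover were taken from 7 lists of 44 genes, of which 43 were in the table and 34 had enough reads. With siTAZ #1, 8 of the 34 (23.5%) were lower and 10 (29.4%) higher, against 14.8% and 15.7% of all genes tested, and 16 were not called. With siTAZ #2, 3 (8.82%) were lower and 14 (41.2%) higher, against 19.3% and 19.5% of all genes, and 17 were not called. Over the 34 genes the median was 0.18 (log2 fold change) for siTAZ #1 and 0.41 for siTAZ #2, against 0.02 and 0.01 over all genes tested. Between the siRNAs, 14 (41.2%) were lower with siTAZ #1 and 6 (17.6%) higher, against 18.6% and 19.4% of all genes. The lists were chosen with earlier results of these data known, so a difference from all genes can follow from the choice. The single lists hold 2 to 8 tested genes each, so their counts below are read against the same shares of all genes and are descriptions.

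All 5 lysyl oxidases, which crosslink elastin and collagen, were tested, and they did not move together. LOX was higher with siTAZ #1 (log2 fold change 0.39, SE 0.12, edgeR FDR = 0.0181), and its value with siTAZ #2 was -0.19 (edgeR FDR = 0.204). LOXL1, the family member tied to elastic fibre upkeep, was higher with siTAZ #2 (0.79, SE 0.11, edgeR FDR = 6.93e-05), and its value with siTAZ #1 was -0.12 (edgeR FDR = 0.472). LOXL2 was lower with siTAZ #1 (-0.33, SE 0.10, edgeR FDR = 0.0278) and higher with siTAZ #2 (0.94, SE 0.11, edgeR FDR = 6.37e-06), as ELN was. Of the latent TGF-beta binding proteins, which dock on fibrillin, 2 of 4 were higher with siTAZ #1 (15.7% of all genes), and with siTAZ #2 2 were higher (19.5%) and 1 lower (19.3%). LTBP2 was higher with both (0.29, edgeR FDR = 0.0459, and 1.20, edgeR FDR = 4.56e-07). LTBP1 was higher with siTAZ #1 (0.47, edgeR FDR = 0.00188) and lower with siTAZ #2 (-0.56, edgeR FDR = 0.000371), as FBN1 was. LTBP4, which is needed for elastic fibre assembly, was not called with siTAZ #1 (0.30, edgeR FDR = 0.0754) or siTAZ #2 (0.23, edgeR FDR = 0.142).

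EMILIN1, a glycoprotein at the interface of elastin and microfibrils, rose with both siRNAs (log2 fold change 1.00 and 1.28, edgeR FDR = 1.85e-05 and 1.2e-06). Of the 7 tested ADAMTS and ADAMTS-like genes that bind microfibrils, 3 were lower with siTAZ #1 (14.8% of all genes) and 2 higher with siTAZ #2 (19.5%). THSD4 (ADAMTSL6), which binds fibrillin-1, fell with siTAZ #1 (-1.37, SE 0.13, edgeR FDR = 1.29e-06), and its value with siTAZ #2 was -0.04. ADAMTS6 fell with siTAZ #1 (-0.93, SE 0.20, edgeR FDR = 0.00257), and ADAMTS10 rose with siTAZ #2 (1.38, SE 0.28, edgeR FDR = 0.00109). All 3 were lower with siTAZ #1 than with siTAZ #2 (log2 differences -1.33, -1.41 and -1.82).

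Among 8 receptors and chaperones, siTAZ #1 lowered 3 and raised 2 (14.8% and 15.7% of all genes), while siTAZ #2 lowered 2 and raised 4 (19.3% and 19.5%). ITGA5, the fibronectin receptor subunit that also binds fibrillin-1, was 3.83-fold lower with siTAZ #1 (log2 fold change -1.94, SE 0.11, edgeR FDR = 1.11e-08), and its value with siTAZ #2 was 0.01 (95% interval -0.22 to 0.23). ITGB5 rose with both (1.29 and 2.04, edgeR FDR = 2.48e-07 and 2.7e-09), and ITGB3 rose with siTAZ #2 (1.86, SE 0.13, edgeR FDR = 5.27e-08). Of 6 tested proteases that degrade elastin or other matrix, 3 were higher and 3 not called with each siRNA, where 15.7% (siTAZ #1) and 19.5% (siTAZ #2) of all genes were higher. MMP14 (1.19 and 0.89) and CTSS (1.21 and 1.13) rose with both. FBN3, the remaining fibrillin, was at 0.328 to 0.492 CPM in the 3 groups and was not tested. HMCN1, a large relative of the fibulins, passed only between the siRNAs (log2 difference 0.73, SE 0.26, edgeR FDR = 0.0138).

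**Figure D5:**
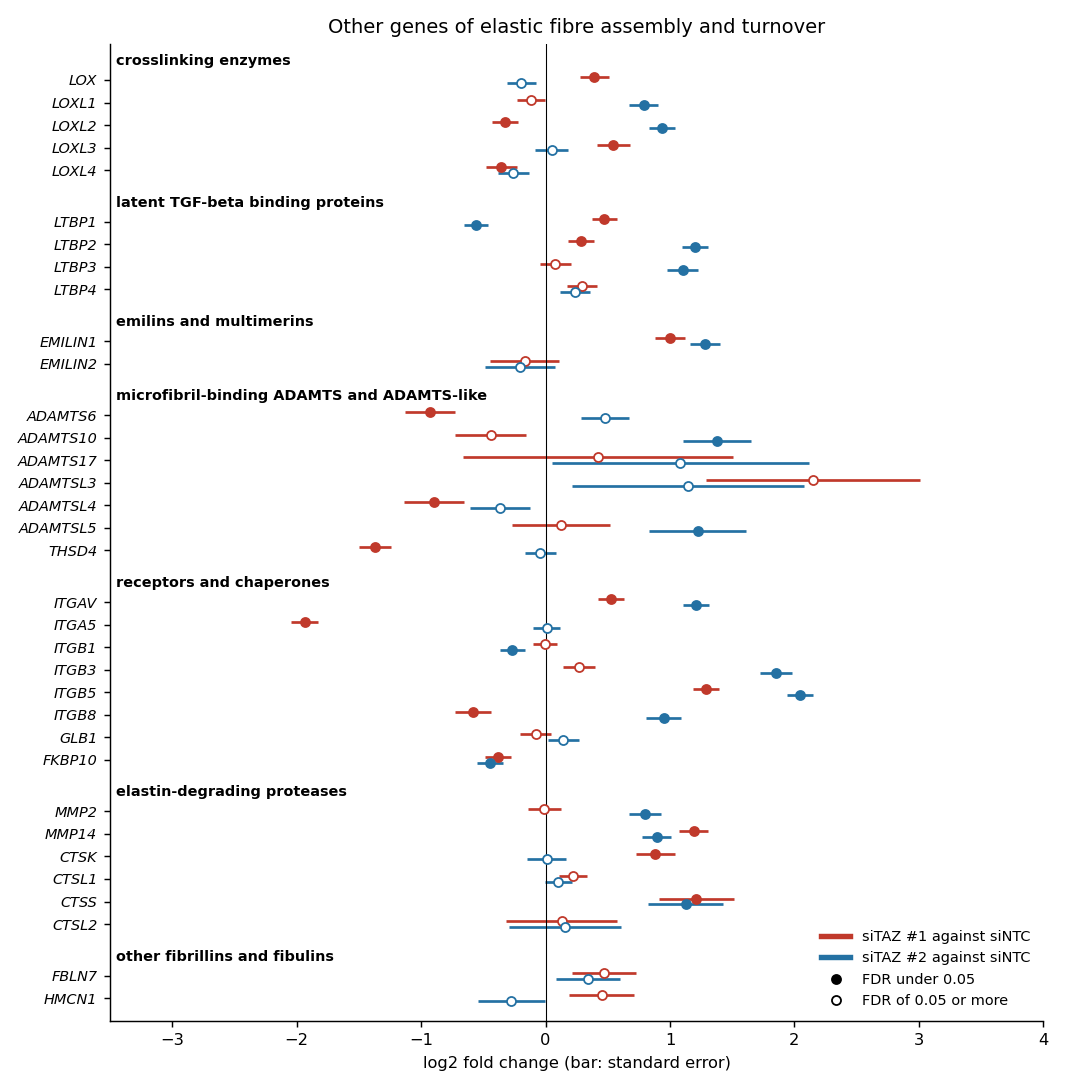
Log2 fold change against siNTC with siTAZ #1 (red) and siTAZ #2 (blue) for the 34 tested genes of the 7 lists; bars are standard errors, and filled points have an FDR under 0.05. ITGA5 (-1.94) and THSD4 (-1.37) are far to the left with siTAZ #1 alone, and ITGB5, EMILIN1, MMP14 and CTSS are to the right with both.

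The genes whose levels ran most like those of ELN and FBN1 over the 6 libraries were found by the root-mean-square difference of log2 CPM, each gene centred on its own mean. For ELN they were MXRA8 (0.048), ACP2 (0.084) and GGT1 (0.096), and for FBN1 they were CRAT (0.070), TMEM194A (0.085) and EXTL2 (0.099), on a log2 scale. MXRA8, a membrane protein of the immunoglobulin superfamily, had log2 fold changes of -0.70 with siTAZ #1 and 1.14 with siTAZ #2, close to those of ELN. CRAT, carnitine acetyltransferase, had 0.71 and -0.93, close to those of FBN1. GGT1 has near-identical copies in the genome, so its count is uncertain. These genes were chosen by likeness over the same libraries, so the nearness of their fold changes follows from the choice. The likeness covers 6 libraries in 3 groups only.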

How the data were processed

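The deposited table holds raw read counts per gene for the 6 libraries. The authors sequenced on the Ion Proton, aligned with TMAP to the hg19 build and counted reads by HTSeq 0.6.1 (version from the submitters' processing notes), without normalization; the strand setting is not given in the sources used here, so reads of overlapping or antisense genes cannot be told apart. Of 23368 entries, 13 carried a date in place of a symbol and were left out. Positions, lengths and GC content came from GENCODE v44lift37 on GRCh37 (21478 entries with a position, 1877 without), and promoters from RefSeq on GRCh38.p14.

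Counts were filtered with filterByExpr, scaled by TMM and fitted over all 6 libraries with edgeR 4.0.16 (quasi-likelihood F test, R 4.3.3), with Benjamini-Hochberg adjustment (FDR) over 13456 genes and a threshold of 0.05. The 1168 entries from RANGAP1 to the end of Y, nearly missing from siTAZ #1 replicate 2, were left out, because they raised the common dispersion from 0.0163 to 0.0807; the fit with all genes is an alternative. Standard errors were the log2 fold change divided by the square root of F. CPM are counts over TMM-scaled library sizes of the fit. P-values set a difference between groups against the spread between the 2 libraries within a group. That spread was pooled over the 3 groups and drawn toward that of other genes. The scripts were tested on simulated data. DESeq2 1.42.0, other scalings and filters, GC and length offsets and leaving out each library were tried as alternatives.

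The 10 genes and the lists were chosen with earlier results of these data known. The 10 are named throughout. From the lists, up to 12 genes passing the threshold in any comparison are named, largest change first within a list, plus LOX, LOXL1, LTBP1 and LTBP4. The 3 genes most like each of ELN and FBN1 are also named. Same-numbered replicates were not treated as pairs.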

Additional observations from a re-analysis of the deposited data

Results flagged for a closer look

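A gene was flagged if it passed against siNTC with both siRNAs in opposite directions and also passed the direct comparison of the siRNAs. ELN and FBN1 met this rule, so a passing direct comparison follows from how they were flagged. The log2 fold change of ELN with siTAZ #1 minus that with siTAZ #2 was -1.88 (SE 0.15, edgeR FDR = 1.68e-07), with both siTAZ #1 libraries below and both siTAZ #2 libraries above siNTC. That of FBN1 was 1.62 (SE 0.11, edgeR FDR = 4.19e-08), with both siTAZ #1 libraries above and both siTAZ #2 libraries below siNTC. Over 18 alternatives the ELN difference ranged from -1.96 to -1.62 and the FBN1 difference from 1.5 to 1.73.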

How the results depend on the processing

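Over 18 alternatives each, the calls for ELN, FBN1, FBN2 and FBLN5 with siTAZ #1, and for ELN, FBN1, FBN2, EFEMP1 and MFAP2 with siTAZ #2, kept their direction and passed the test. Of the log2 fold changes of the 9 genes recomputed under these alternatives, 454 kept direction and call, 21 lost a call, 5 gained a call and 6 reversed. The number of genes lower with siTAZ #1 went from 5 to 3 with all genes kept, and was 3 to 6 with single libraries left out. The number higher with siTAZ #1 went from 2 to 1 with an exact test on 4 libraries, upper-quartile scaling, no low-count filter, a fit of 4 libraries or the replicate block, and was 1 to 2 with each library left out, through MFAP2. Reversed values were those of uncalled genes: FBLN2 with siTAZ #1 ranged from -0.19 to 0.53 and EFEMP2 with siTAZ #1 from -0.52 to 0.016 when single libraries were left out; FBLN2 between the siRNAs ranged from -0.50 to 0.22 and was 0.16 with the GC offset; EFEMP2 with siTAZ #2 was -0.038 with the GC offset. EFEMP2 with siTAZ #2 passed with the exact test (FDR 0.0328), a fit of 4 libraries (0.0356), and without either siTAZ #1 library (0.0383, 0.0353). MFAP4 with siTAZ #1 lost its call with DESeq2 (adjusted p 0.161). The cause of these changes was not tested.

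With a replicate block, MFAP2 with siTAZ #1 had a log2 fold change of 0.37 (edgeR FDR = 0.0655), and no other call of the 9 genes changed. Deviations of same-numbered libraries correlated at -0.0066, 0.0082 and -0.18 over genes. With 2 libraries per group, such correlations cannot show whether the samples were processed in pairs. With the siTAZ numbers crossed, an alternative chosen after seeing the data, 5 genes were lower and 3 higher between the siRNAs. Over all genes, calls with siTAZ #1 fell from 1998 lower and 2114 higher to 1108 and 1090 without siNTC replicate 2 and 1145 and 1059 without replicate 1, and calls with siTAZ #2 from 2592 and 2624 to 1669 and 1515 and to 1755 and 1485. With the GC offset the calls with siTAZ #2 were 3031 lower and 2367 higher. Depth limits MFAP5, which had at most 10 reads in a library.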
